A study of Mus musculus with 847 samples.

Results

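The 10 genes described here, P2ry12, P2ry13, Tmem119, Cx3cr1, Sall1, Siglech, Gpr34, Csf1r, Olfml3 and Selplg, are transcripts used to recognise microglia in their resting, or homeostatic, state. They were taken by name from the count table, 10 of its 21076 genes. Read counts came from bulk RNA of 847 dissected tissue pieces of 59 C57BL/6JN mice, 25 females and 34 males, with 1 library per mouse and region in 15 brain regions. The ages were 3, 12, 15 and 18 months with 5 females and 5 males each, 21 months with 5 females and 6 males, 26 months with 5 males and 28 months with 3 males. A region held 51 to 59 libraries, and a region and age held 2 to 11. All mice were of the same inbred strain, and the labels name neither a mutation nor a treatment. Ages followed the numbering of the mice in part: mice 1 to 15 were 12 or 26 months old, mice 16 to 56 were 3, 15, 18 or 21 months old, and mice 57 to 59 were 28 months old.

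Microglia are the resident macrophages of the brain. Their survival depends on the receptor encoded by Csf1r, and they scan the tissue with receptors for signals from neurons and from damaged cells: Cx3cr1 binds fractalkine, P2ry12 and P2ry13 bind ADP, and Gpr34 binds lysophosphatidylserine. Sall1 encodes a transcription factor that maintains microglial identity, Tmem119, Siglech and Selplg encode surface proteins, and Olfml3 encodes a secreted matrix protein. Lower homeostatic transcripts, P2ry12 among them, are a known mark of microglia that have entered an activated state. None of the 10 is made by microglia alone in every tissue: blood monocytes and other leukocytes also make Csf1r, Cx3cr1 and Selplg, and Sall1 is also made by neural cells. In bulk samples fewer cells of a type and less RNA per cell cannot be told apart, so each value below is a level of the transcript in the tissue.

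P2ry12 and P2ry13 lie next to each other on chromosome 3 and on the same strand, 5389 bases apart in GENCODE M21 (GRCm38), and both lie within the span of Med12l on the opposite strand. P2ry12 covers chr3:59216272-59262871 and P2ry13 covers chr3:59207892-59210882, both on the minus strand. The sequences just before their starts are shown because these neighbours rose with age in different numbers of regions, 1 for P2ry12 and 11 for P2ry13. They are joined by that of Cx3cr1, which held the steepest slope of the 10 genes, and that of Siglech, which holds one of the motif matches. Each run is the 250 bases before the RefSeq start on GRCm38.p6, written 5′ to 3′ on the gene's strand. The windows are chr3:59262986-59263235 (minus) for P2ry12, chr3:59210883-59211132 (minus) for P2ry13, chr9:120068297-120068546 (minus) for Cx3cr1 and chr7:55767934-55768183 (plus) for Siglech. Capitals mark GGAAGT, a part of the site bound by the myeloid factor PU.1, or its reverse complement ACTTCC. Shorter parts of that site were not searched.
P2ry12: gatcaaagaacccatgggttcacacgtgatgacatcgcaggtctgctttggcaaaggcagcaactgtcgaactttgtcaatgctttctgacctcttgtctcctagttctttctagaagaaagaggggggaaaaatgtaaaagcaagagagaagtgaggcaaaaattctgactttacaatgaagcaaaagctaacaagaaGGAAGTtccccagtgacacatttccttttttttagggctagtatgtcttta
P2ry13: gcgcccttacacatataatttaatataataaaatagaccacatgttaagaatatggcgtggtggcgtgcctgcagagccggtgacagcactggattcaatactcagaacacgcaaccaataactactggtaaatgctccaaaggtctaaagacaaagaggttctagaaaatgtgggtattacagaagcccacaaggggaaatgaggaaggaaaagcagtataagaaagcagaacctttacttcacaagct
Cx3cr1: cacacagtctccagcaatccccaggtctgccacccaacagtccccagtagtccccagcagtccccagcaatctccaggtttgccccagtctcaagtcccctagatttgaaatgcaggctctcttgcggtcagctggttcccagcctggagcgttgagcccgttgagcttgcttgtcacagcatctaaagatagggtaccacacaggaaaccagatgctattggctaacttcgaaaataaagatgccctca
Siglech: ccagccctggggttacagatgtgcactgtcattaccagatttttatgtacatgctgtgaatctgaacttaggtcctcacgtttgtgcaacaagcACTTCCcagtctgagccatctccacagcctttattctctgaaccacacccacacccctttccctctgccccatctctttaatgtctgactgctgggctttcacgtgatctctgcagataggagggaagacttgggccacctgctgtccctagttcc

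RefSeq promoter windows were at hand for 6 of the 10 genes (these 4, Olfml3 and Sall1). GGAAGT was found on either strand in 3 of the 6: in P2ry12 from position -51 counted back from the start, in Siglech from -156 as ACTTCC, and in Sall1 from -180. Sall1 had several windows, and only a single window matched. Of all 32851 RefSeq promoter windows of that length 19.7% held it. That share counts windows, whereas the 3 of 6 counts genes. The longer PU.1 string GAGGAAGT (2.44% of all windows), the MEF2 string TATTTATA (1.56%), the SMAD string GTCTAGAC (0.167%) and the IRF motif, GAAA and GAAA with 2 bases between them (2.98%), were in none of the 6, searched on both strands. GAGGAAGT contains GGAAGT, so those searches overlap. A match is a description of these letters only.

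The libraries held 481444 to 26756735 reads in genes (median 6716032), and 10 held fewer than 1000000. By age the median total ran from 6327609 reads at 18 months to 7490224 at 28 months. All 10 genes had at least 1 read in every library, except Sall1, which was at 0 in 2 libraries. Choroid plexus markers were read beside the dissection labels, in CPM (reads per 1000000 reads of the library). Summed over 10 such genes (Ttr and others), the median was 8264 CPM in 3-month choroid plexus and 316.8 in 3-month motor cortex. Nearly all of the motor cortex sum was Enpp2, with a 3-month median of 313.2 CPM there, where Ttr had 0.0. Some 3-month corpus callosum and subventricular zone libraries also reached high sums, up to 24355 and 16153 CPM, above the choroid plexus median. The markers therefore do not tell choroid plexus libraries from those of every other region. The libraries that stand apart over all genes were entorhinal cortex of mouse 52, subventricular zone of mouse 3, posterior hippocampus of mouse 38 and cerebellum of mice 25 and 40. In the mean of the 10 genes, 9 other libraries stood apart from their region and age. The counts of rising and falling pairs are given with and without them.

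Most of the homeostatic genes rose with age in most regions. A slope in log2 level per month was fitted in each region with sex in the model (edgeR quasi-likelihood test, Benjamini-Hochberg adjustment over all genes of the region, threshold 0.05). Of the 150 gene and region pairs, 94 rose, 2 fell and 54 did not pass. Over all genes tested in all regions, 6.37% of pairs rose and 5.1% fell. The median slope of the 150 pairs was 0.0136 per month, and 136 of the 150 slopes were positive. The median slope of all genes tested lay between -0.00056 and 0.00056 in each region. Without the 5 libraries that stand apart over all genes the counts were 93 and 2, and without the 9 that stand apart in the 10 genes they were 94 and 2. Within males alone 55 pairs rose and 3 fell, where 3.98% of all pairs rose and 2.91% fell.

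**Figure D1:**
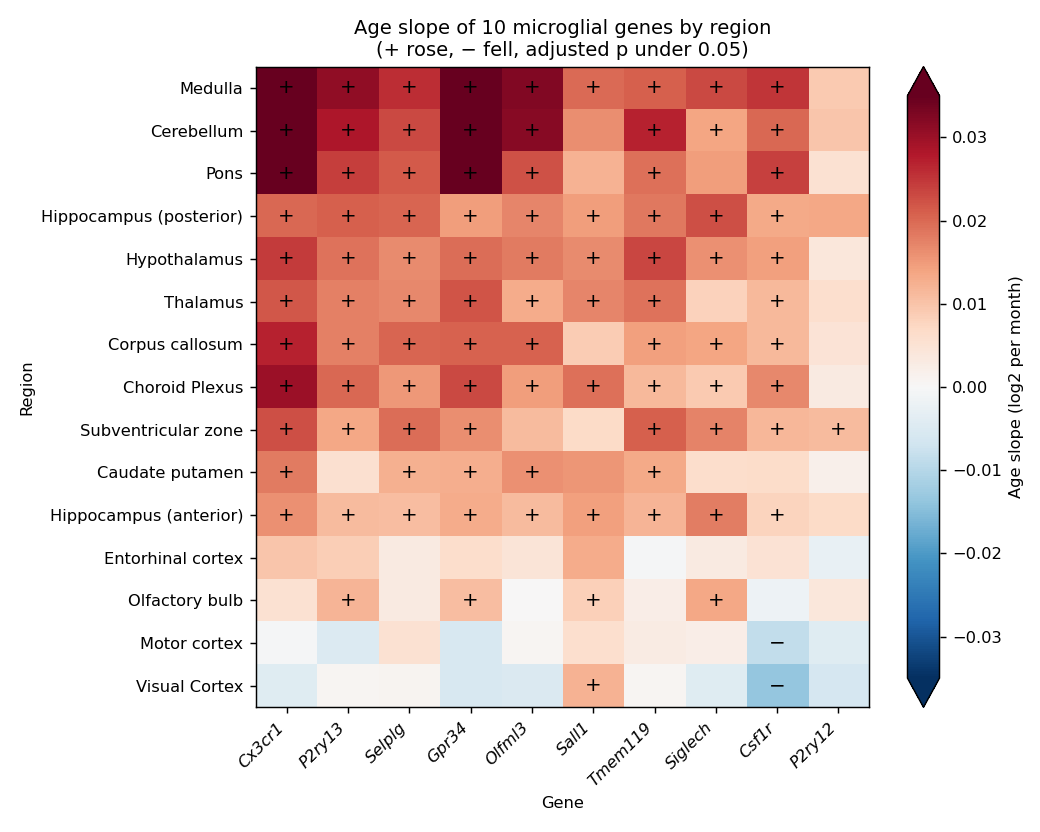
Age slope of each of the 10 genes (columns) in each of the 15 regions (rows), as the change in log2 level per month by colour, with + or − where the slope passed the threshold. The 94 rises fill most rows, the 2 falls are Csf1r in motor and visual cortex, and the column of P2ry12 holds 1 rise.

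The number of rising genes ran from 9 of 10 down to none between regions. In medulla, choroid plexus, anterior hippocampus, posterior hippocampus and hypothalamus 9 of the 10 genes rose, beside 6.56%, 11.5%, 6.89%, 4.53% and 4.13% of all genes of those regions, and none fell, beside 4.21%, 9.28%, 4.52%, 2.29% and 3.21%. In cerebellum, corpus callosum, subventricular zone and thalamus 8 rose, beside 10.5%, 9.64%, 4.85% and 2.78%, and none fell, beside 8.41%, 8.95%, 3.67% and 2.01%. In pons 7 rose (all genes 4.62% rising and 1.07% falling), in caudate putamen 5 (7.68% and 6.26%) and in olfactory bulb 4 (7.78% and 9.01%), with no fall in these regions either. Visual cortex had 1 rise, Sall1, and 1 fall, Csf1r, beside 5.8% rising and 4.94% falling. Motor cortex had no rise and 1 fall, beside 8.39% and 8.89%. Entorhinal cortex had no call, but there only 0.186% of all genes rose and 0.0413% fell. Outside the 3 cortical regions and the olfactory bulb 89 of 110 pairs rose, against 5 of 40 inside them. This grouping follows from the counts above and was not tested. The shares of all genes are those given for each region. Entorhinal cortex, with few calls over all genes, holds 10 of the 40 pairs.

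Cx3cr1, the fractalkine receptor, had the steepest slope among the 150 pairs. In cerebellum the 10 libraries at 3 months ran from 17.5 to 27.6 CPM (median 19.8), and the 3 libraries at 28 months held 31.7, 41.1 and 47.7 CPM. All of the oldest libraries lay above all of the youngest. The slope was 0.0463 per month (SE 0.00433, n = 58, adjusted p = 5.11e-13), which is a fold of 2.23 over the 25 months studied. In medulla Cx3cr1 ran from 28.6 to 48.7 CPM (median 36.1) at 3 months and held 52.6, 65.6 and 70.0 CPM at 28 months, a fold of 1.93 over 25 months (slope 0.0380, SE 0.00404, adjusted p = 4.47e-11). Its medians in medulla stood at 41.3 CPM at 12 months, 47.3 at 15, 54.3 at 18, 64.4 at 21 and 63.0 at 26 months, so the level climbed up to 21 months and stayed near there. In corpus callosum it ran from 53.4 to 79.6 CPM (median 68.7) at 3 months and held 104.3, 115.1 and 137.8 CPM at 28 months (fold 1.60 over 25 months, adjusted p = 3.94e-10). Choroid plexus RNA varied widely in corpus callosum, with a higher median at 28 months and overlapping ranges: the summed level of the 10 choroid plexus genes had a median of 1077 CPM at 3 months (422.4 to 24355) and was 625.1, 6730 and 16226 CPM at 28 months. With the mean level of that list as a covariate the corpus callosum slope of Cx3cr1 was 0.0277 per month, against 0.0270 without it. Cx3cr1 rose in 11 of 15 regions in all, pons with a fold of 1.91 and choroid plexus with 1.68 among them.

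Cx3cr1 did not pass in the other 4 regions, the 3 cortical ones and olfactory bulb. In visual cortex it ran from 49.5 to 72.6 CPM (median 56.5) at 3 months, and the 28-month libraries held 46.6, 54.3 and 65.8 CPM. Here the age groups overlapped throughout, and the slope was -0.0042 per month (SE 0.00327, adjusted p = 0.447). In motor cortex it ran from 46.5 to 59.4 CPM at 3 months and held 53.0, 53.8 and 66.8 CPM at 28 months (slope -0.00044, adjusted p = 0.924). In entorhinal cortex the slope was positive, 0.00977, with a larger error (SE 0.0065, n = 51, adjusted p = 0.662).

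Csf1r, the receptor for the survival factors CSF1 and IL-34, rose in 10 regions and was the gene that fell. In medulla it ran from 55.6 to 85.7 CPM (median 68.3) at 3 months and held 82.8, 102.0 and 102.6 CPM at 28 months (fold 1.54 over 25 months, adjusted p = 1.43e-08). In visual cortex it ran from 77.9 to 110.9 CPM (median 85.8) at 3 months and held 65.2, 71.2 and 75.0 CPM at 28 months. All of the oldest visual cortex libraries lay below all of the youngest, the only such case among the 150 pairs. The slope there was -0.0134 per month (SE 0.00275, n = 56, adjusted p = 0.000595), and over 25 months the level came to 0.793 of its start. In motor cortex Csf1r ran from 68.6 to 89.0 CPM at 3 months and held 56.6, 58.0 and 81.3 CPM at 28 months, so the groups overlapped, with a slope of -0.00861 (SE 0.00227, n = 59, adjusted p = 0.00502). Csf1r shares 873 exon bases with Hmgxb3 on the opposite strand and Smart-seq2 libraries do not keep strand. Hmgxb3 itself passed for age in 0 of 15 regions in either direction.

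**Figure D2:**
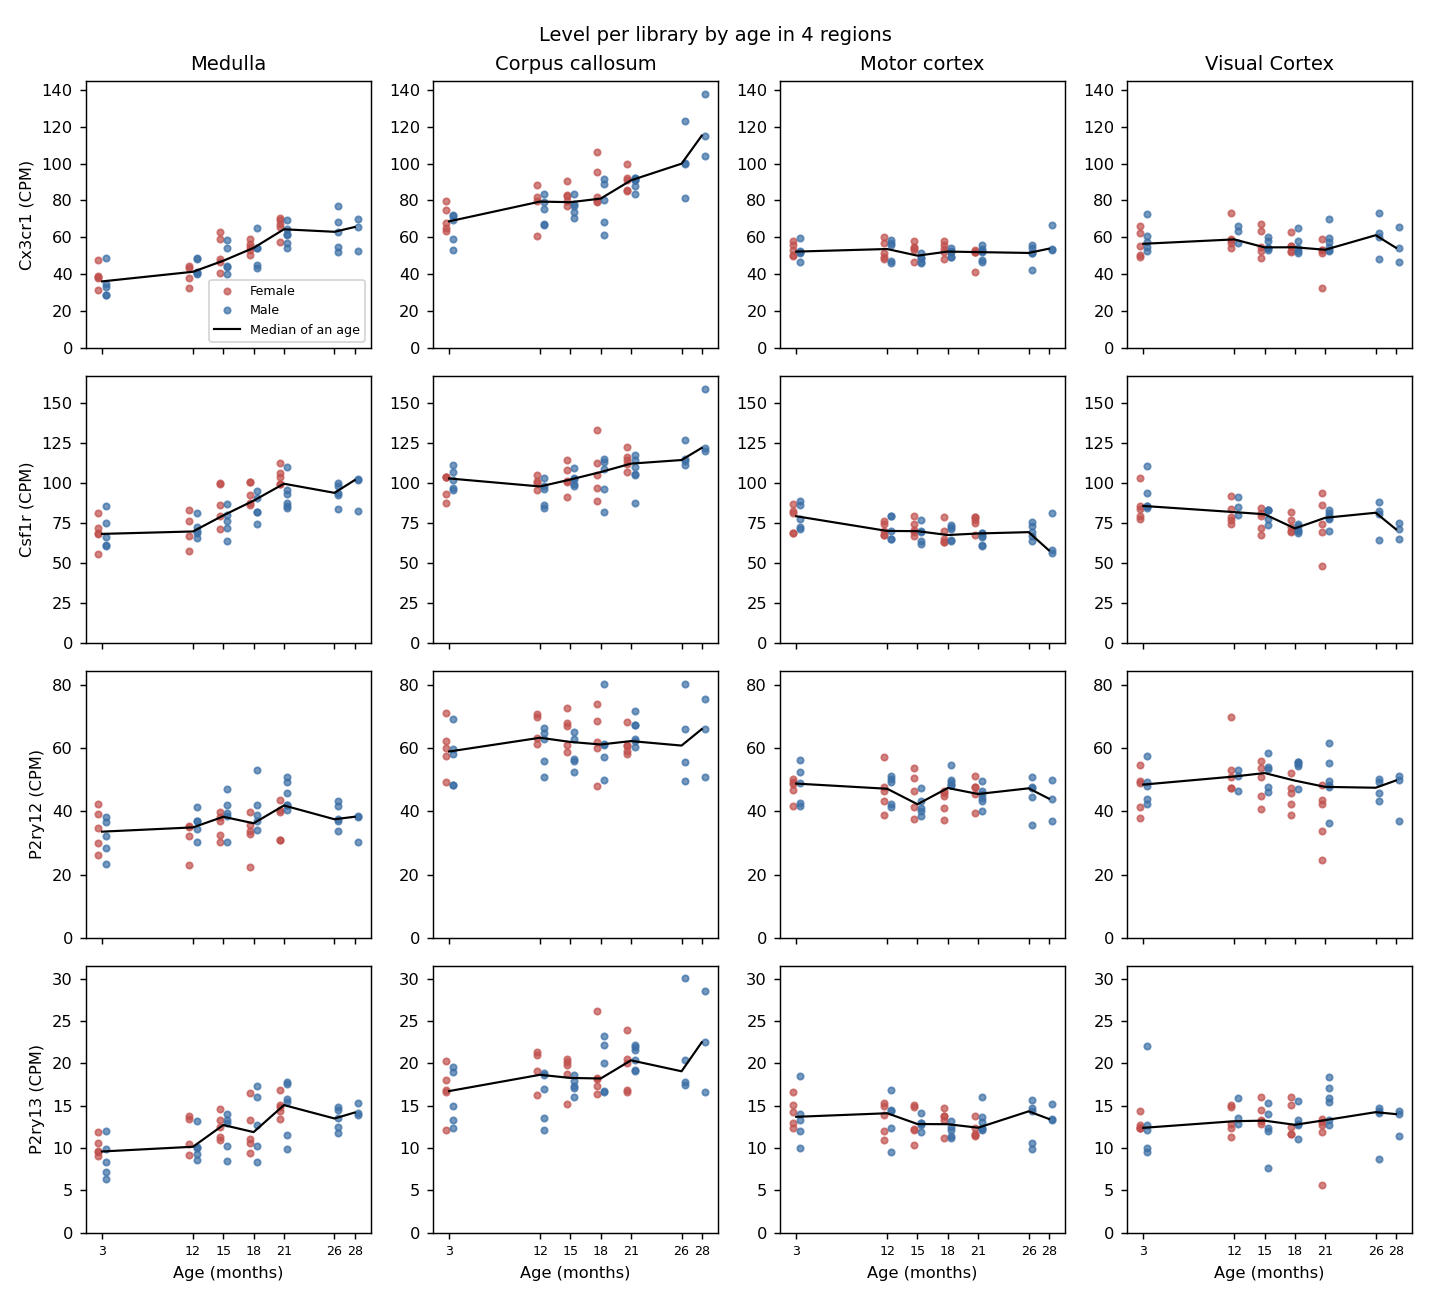
Level in CPM of Cx3cr1, Csf1r, P2ry12 and P2ry13 against age in months, 1 point per library (females and males marked apart) with a line through the median of each age, in medulla, corpus callosum, motor cortex and visual cortex. Cx3cr1 climbs in medulla and corpus callosum and overlaps between ages in both cortical regions, and Csf1r declines in visual cortex from a median of 85.8 to 71.2 CPM.

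Of the ADP receptors P2ry13 passed as rising in 11 regions and P2ry12 in 1, and the difference between their slopes was not tested. In medulla it ran from 6.30 to 12.0 CPM (median 9.59) at 3 months and held 13.9, 14.2 and 15.3 CPM at 28 months, without overlap (slope 0.0309, SE 0.00487, adjusted p = 2.46e-06, fold 1.71 over 25 months). In visual cortex P2ry13 held 11.4, 14.0 and 14.4 CPM at 28 months, within the 9.53 to 22.1 CPM of the 3-month libraries (adjusted p = 0.946).

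P2ry12, the receptor by which microglial processes move towards ATP and ADP released from injured cells, rose in 1 region. That was the subventricular zone, where it ran from 41.9 to 57.6 CPM (median 49.2) at 3 months and held 50.5, 62.4 and 63.2 CPM at 28 months (slope 0.0112, SE 0.00332, n = 55, adjusted p = 0.0236). The choroid plexus sum in that region had a median of 808.2 CPM at 3 months (296.4 to 16153) and was 973.2, 4148 and 10588 CPM at 28 months, and with that list as a covariate the slope of P2ry12 was 0.0118 (SE 0.00318, adjusted p = 0.00883). The age groups overlapped there, as they did for P2ry12 in all 15 regions. In medulla, where the other 9 genes rose, P2ry12 ran from 23.2 to 42.4 CPM (median 33.6) at 3 months and held 30.4, 38.3 and 38.4 CPM at 28 months (slope 0.00911, SE 0.00433, adjusted p = 0.17). Its slope was positive in 12 of 15 regions with a median of 0.00486 per month, which is a fold of 1.09 over 25 months, and its unadjusted p was under 0.05 in 5. In no region did P2ry12 fall. Med12l, which spans both ADP receptor genes and shares 9 exon bases with P2ry12, passed for age in 0 of 15 regions.

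Gpr34, the lysophosphatidylserine receptor, rose in 12 of 15 regions, the highest number among the 10 genes. In medulla it ran from 6.87 to 17.3 CPM (median 11.8) at 3 months, and the 28-month libraries held 16.1, 17.6 and 18.4 CPM. Its slope there was 0.0392 per month (SE 0.00483, adjusted p = 4.8e-09, fold 1.97 over 25 months), although the ranges overlapped. The 3-month group holds both sexes, which differed in Gpr34 as described below, and the 28-month group holds males only. In cerebellum and pons the fold over 25 months was 1.83 and 1.90.

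Sall1, the identity factor, was the only gene beside Selplg with a positive slope in all 15 regions, and it rose in 8. In medulla it ran from 7.70 to 16.0 CPM (median 11.2) at 3 months and held 15.5, 17.6 and 18.0 CPM at 28 months (slope 0.0199, SE 0.00442, adjusted p = 0.000928). It was the gene that rose in visual cortex, from 5.38 to 11.3 CPM at 3 months to 8.94, 9.25 and 10.3 CPM at 28 months, with overlap (slope 0.0121, SE 0.00414, adjusted p = 0.0467). In olfactory bulb, where its level was far above that elsewhere, it ran from 89.0 to 114.9 CPM at 3 months and held 104.2, 111.2 and 134.6 CPM at 28 months (slope 0.00828, SE 0.00206, adjusted p = 0.0029).

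Among the surface and secreted proteins, Tmem119 and Selplg rose in 11 regions, Olfml3 in 10 and Siglech in 9. Tmem119, a membrane protein used to tell microglia from other macrophages, ran from 17.3 to 28.9 CPM (median 23.0) in hypothalamus at 3 months and held 34.2 and 39.5 CPM in the 2 libraries at 28 months, without overlap (slope 0.0234, SE 0.00393, n = 55, adjusted p = 3.86e-05). Selplg, the P-selectin ligand, ran from 30.9 to 39.3 CPM (median 36.5) in corpus callosum at 3 months and held 43.6, 57.1 and 62.6 CPM at 28 months, again without overlap (slope 0.0203, SE 0.00293, adjusted p = 3.01e-07). With the choroid plexus list as a covariate, whose sums in this region are given with Cx3cr1, the slope was 0.0209. These 2 genes are neighbours on chromosome 5, 18019 bases apart. Siglech, a sialic acid binding receptor, ran from 14.3 to 21.3 CPM (median 17.8) in posterior hippocampus at 3 months and held 26.2, 29.2 and 30.0 CPM at 28 months (slope 0.0226, SE 0.00419, adjusted p = 0.000173). Olfml3 ran from 10.4 to 14.8 CPM (median 11.3) in cerebellum at 3 months and held 16.9, 17.7 and 25.7 CPM at 28 months (slope 0.0318, SE 0.0036, adjusted p = 2.91e-10, fold 1.74 over 25 months). In those regions the oldest libraries of Siglech and Olfml3 also lay above all of the youngest.

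Over all 150 pairs, every 28-month library lay above every 3-month library in 41, below in 1, and the ranges overlapped in 108. Among all gene and region pairs with a mean of at least 1 CPM, 3.83% lay above and 2.16% below. Cx3cr1 gave 11 of the 41, Tmem119 and Selplg 6 each, P2ry13, Siglech, Csf1r and Olfml3 4 each, Gpr34 and Sall1 1 each and P2ry12 none.

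Set against 3 months one age at a time, the number of higher pairs grew up to 21 months. At 12 months 11 of 150 pairs were higher and 0 lower (edgeR, all genes 0.835% higher and 0.927% lower), and at 15 months 19 were higher and 0 lower (0.734% and 0.551%). At 18 months 40 were higher and 2 lower (1.75% and 1.11%), and at 21 months 79 and 2 (3.98% and 3.01%). At 26 months 43 were higher and 0 lower (2.75% and 1.57%), and at 28 months 54 and 2 (3.69% and 2.65%). The groups differ in size, 10 or 11 mice up to 21 months but 5 at 26 and 3 at 28, and all 6 comparisons share the 3-month libraries. The count at 28 months changed with the mouse left out: it was 21 without mouse 58 and 34 without mouse 59. Leaving out 1 of the 3 mice of that age leaves fewer libraries for every gene. The shares of all genes for those fits are not given here. The count at 15 months was 10 without mouse 38. Within males alone the higher pairs were 1, 2, 12, 36, 29 and 34 at the 6 ages in order. That subset holds fewer libraries. Its shares of all genes are not given here, so a loss of calls in general cannot be told from a loss in these genes.

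The median differences were larger at 21 than at 12 months for all 10 genes, and smaller at 26 than at 21 months for 7 of them. At 28 months they were larger than at 21 months for 8 of the 10. For Cx3cr1 the median over regions of the log2 difference from 3 months was 0.16 at 12 months, 0.23 at 15, 0.29 at 18, 0.45 at 21, 0.45 at 26 and 0.57 at 28 months. Gpr34 stood at 0.15 at 12 months, 0.38 at 21, 0.28 at 26 and 0.40 at 28 months, and Tmem119 at 0.17, 0.32, 0.27 and 0.41. Csf1r began lower, with a median of -0.04 at 12 months and only 6 of 15 regions positive, and reached 0.28 at 28 months with 13 positive. P2ry12 had 0.11 at 12 months, 0.15 at 15 and 0.04 at 28 months.

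The slopes were also fitted within the blocks of mouse numbers. In mice 16 to 56, which hold 3, 15, 18 and 21 months, 83 pairs rose and 2 fell, where 4.23% of all pairs rose and 3.25% fell. In the males of mice 1 to 15, which hold only 12 and 26 months, 4 rose and 0 fell, where 0.217% of all pairs rose and 0.0414% fell, and 13 called slopes had the opposite sign without passing. The difference between the blocks was not tested. For 12, 26 and 28 months against 3 months, age and block of mouse numbers cannot be told apart.

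The size of the age slope differed between regions for 9 of the 10 genes. In a fit of all 847 libraries together, the test of the 14 age by region terms passed for 22.8% of the genes tested. Cx3cr1 gave an adjusted p of 2.21e-26, Csf1r 1.35e-18, Gpr34 5.24e-15 and Olfml3 5.04e-10. Selplg (7.8e-07), P2ry13 (9.84e-07), Tmem119 (2.61e-06), Siglech (6.78e-05) and P2ry12 (0.0373) also passed, and Sall1 (0.694) did not. Without the 5 libraries that stand apart over all genes 8 passed.

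Each region's slope was then set against the mean slope of the other 14. Medulla was steeper in 6 genes (P2ry13, Cx3cr1, Gpr34, Csf1r, Olfml3 and Selplg), where 3.82% of all genes were steeper. Cerebellum was steeper in 3 (Cx3cr1, Gpr34 and Olfml3; 1.31%) and pons in 3 (Cx3cr1, Gpr34 and Csf1r; 0.641%). Visual cortex was lower in 6 (Cx3cr1, Siglech, Gpr34, Csf1r, Olfml3 and Selplg; 0.708%), motor cortex in 4 (P2ry13, Cx3cr1, Gpr34 and Csf1r; 0.399%), olfactory bulb in 3 (Cx3cr1, Csf1r and Olfml3; 3.06%) and entorhinal cortex in 1, Tmem119 (0.508%). With the mouse as a block Selplg was also lower in entorhinal cortex (adjusted p = 0.0365) and in olfactory bulb (adjusted p = 0.0498). The slope of Cx3cr1 was 0.0269 per month above the others in cerebellum (SE 0.00415, adjusted p = 1.14e-07) and 0.0265 below them in visual cortex, at -0.0265 (SE 0.00391, adjusted p = 5.91e-08). In the 8 remaining regions none of the 10 genes passed.

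The slope of each gene was also taken relative to Csf1r in the same library, which asks whether the 9 other genes kept step with it. Of 135 pairs 41 rose relative to Csf1r, 6 fell and 88 did not pass (2-sided permutation test of ages among mice within sex, adjusted over all genes of the region). Of all genes 9.58% rose and 42.6% fell relative to Csf1r. Without the 9 libraries that stand apart in the 10 genes 36 rose and 6 fell. In males alone 19 rose and 3 fell (all genes 7.54% and 24.1%), and in mice 16 to 56 43 rose and 3 fell (9.08% and 35.3%). Cx3cr1 rose in 13 of 15 regions relative to Csf1r, with a median slope of 0.0109 per month. In cerebellum the mean log2 ratio of Cx3cr1 to Csf1r went from -1.11 at 3 months to -0.49 at 28 months (slope 0.0246, SE 0.00381, n = 58, adjusted permutation p = 3.96e-05).

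P2ry12 was at the other end, with a median slope of -0.0048 relative to Csf1r. It rose in none of 15 regions and fell in 5, cerebellum, choroid plexus, hypothalamus, medulla and pons. Csf1r itself rose in each of those 5 regions. The share of all genes that fell relative to Csf1r, given above, was larger than 5 of 15, so these falls do not set P2ry12 apart from genes in general. In pons the mean log2 ratio of P2ry12 to Csf1r went from -1.09 at 3 months to -1.69 at 28 months (slope -0.0201, SE 0.00611, n = 51, adjusted permutation p = 0.00195). In medulla it went from -1.07 to -1.42 (slope -0.016, SE 0.00356, n = 58, adjusted permutation p = 9.78e-05). P2ry12 fell relative to Csf1r in 2 regions in males alone and in 3 in mice 16 to 56, and rose in none. Siglech rose in 4 regions and fell in choroid plexus. In visual cortex, where Csf1r itself fell, 7 of the 9 ratios rose, that of Sall1 by 0.0259 per month (adjusted permutation p = 0.000184). There the ratio also rises for any gene that held its level. The share of all genes in that region alone is not given here, so the 7 are not read as a result about these genes. These counts are relative to Csf1r alone and depend on that choice of reference.

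**Figure D3:**
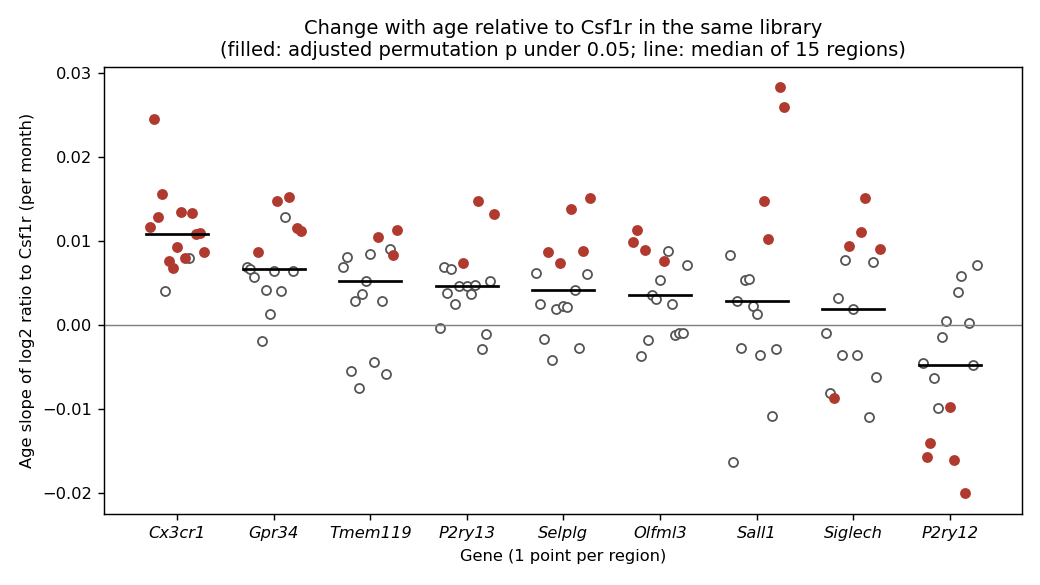
Age slope of the log2 ratio of each gene to Csf1r per month (vertical axis), 1 point per region, filled where the adjusted permutation p is under 0.05, with a line at the median of the 15 regions. Cx3cr1 lies above 0 in all regions (0.00406 to 0.0246), and P2ry12 reaches furthest below (-0.0201 in pons).

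Levels differed between regions, with cerebellum lowest for all 10 genes and no single order above it. Averaged over the 10 genes, mean log2 CPM was highest in caudate putamen (5.34), corpus callosum (5.22) and anterior hippocampus (5.16), and lowest in motor cortex (4.65), thalamus (4.61) and cerebellum (3.80). All 10 were higher in thalamus than in cerebellum. The highest median was in caudate putamen for 8 genes, in pons for Olfml3 (36.1 CPM) and in olfactory bulb for Sall1 (107.6 CPM). P2ry12 went from 74.6 CPM in caudate putamen to 19.6 in cerebellum, a ratio of 3.81, and Csf1r from 111.7 to 53.9, a ratio of 2.07. Sall1 had a ratio of 22.0, from olfactory bulb down to 4.89 CPM in cerebellum, and its next highest median was 16.4 CPM in corpus callosum. Olfactory bulb stood at rank 4 of the mean over the 10 genes (5.12), and over the 9 genes without Sall1 it stood at rank 9 (4.94).

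Not all steps in that order held beyond the spread of the libraries. Of 140 comparisons of neighbouring regions (10 genes, 14 steps) 104 passed, where 81.7% of such comparisons passed over all genes. Of the 104, 73 followed the order of the mean and 31 ran against it. The order was itself taken from these 10 genes in the same libraries, so a majority along it is built in. From olfactory bulb to subventricular zone 8 genes ran against that order and 1 followed it, from hypothalamus to visual cortex 5 and 2, and from subventricular zone to posterior hippocampus 4 and 1. Between subventricular zone and posterior hippocampus 5 of the 10 genes did not pass, and between visual cortex and medulla, medulla and motor cortex, and choroid plexus and entorhinal cortex 4 each did not pass. At the step from visual cortex to medulla 3 genes were higher in visual cortex and 3 in medulla, so these regions have no order over the list.

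**Figure D4:**
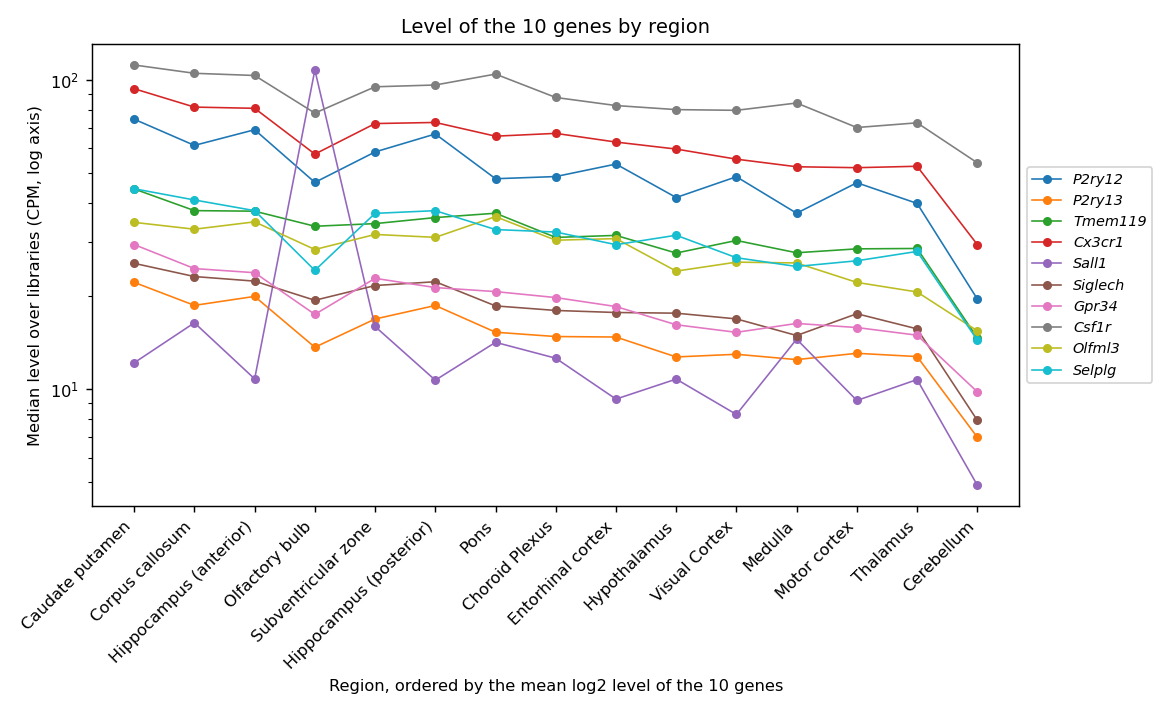
Median level in CPM on a log axis of each of the 10 genes in the 15 regions, ordered by the mean log2 level over the genes. All 10 lines drop at cerebellum, and Sall1 peaks in olfactory bulb at 107.6 CPM.

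Per kilobase of exon sequence the median levels over all libraries ran in the order P2ry12 (19.2 CPM per kilobase), Csf1r (14.9), Tmem119 (13.9), Cx3cr1 (13.8), Gpr34 (8.97), Selplg (7.11), P2ry13 (5.84), Siglech (5.47), Olfml3 (4.60) and Sall1 (2.17). Across the 847 libraries, after subtraction of region means, Cx3cr1 had the highest mean Pearson r with the other 9 genes (0.582), and its r with Csf1r was 0.792. Sall1 had the lowest mean r, 0.264. The libraries share mice and age groups, and these values are descriptions.

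Genes outside the 10 that followed the list closely across the 847 libraries included Laptm5 (mean r of 0.572 with the 10 genes), Ctss (0.533), C1qb (0.53), C1qc (0.53) and C1qa (0.523), and then Gfm2, Pld4, C4b and Cyth4, at 0.52 to 0.489. They were picked by likeness over the same libraries and are not independent of the list.

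Gpr34 was lower in males. Sex was compared at 3 to 21 months, the ages with both sexes, with age as a factor. Of 150 pairs 15 were lower in males and 0 higher (edgeR), where 1.63% and 1.38% of all pairs were, and 11 of the 15 were Gpr34. At an unadjusted p under 0.05 there were 37 pairs in either direction. In corpus callosum Gpr34 stood at 30.7 ± 5.67 CPM in females (SD, n = 24) and 21.6 ± 3.07 in males (SD, n = 26), a log2 difference of -0.51 (SE 0.0576, adjusted p = 1.7e-08), where 0.343% of all genes were lower in males. In medulla it stood at 20.6 ± 6.35 CPM (SD, n = 24) and 14.2 ± 3.26 (SD, n = 26), a difference of -0.53 (adjusted p = 1.15e-06), but there 14.3% of all genes were lower in males. The difference was negative in all 15 regions with a median of -0.34, and it did not pass in cerebellum, entorhinal cortex, posterior hippocampus and visual cortex.

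Gpr34 lies on the X chromosome at chrX:13632089-13640858 (plus strand), inside the span of Cask on the opposite strand. Cask, a scaffold protein of synapses, had a median male minus female difference of 0.00 and was lower in males in 1 of 15 regions and higher in 0. The other 4 calls were Olfml3 in choroid plexus (-0.17) and medulla (-0.19), Csf1r in hypothalamus (-0.12) and Sall1 in medulla (-0.21). The difference in age slope between the sexes passed in none of 150 pairs by edgeR (smallest adjusted p 0.209). At an unadjusted p under 0.05 there were 18 pairs. In all genes that test passed in 0.00708% of pairs one way and 0.0623% the other. The male minus female slope was negative in 80 of the 150 pairs. For Gpr34 it was negative in all 15 regions (median -0.0151 per month), for P2ry12 in 1 and for P2ry13 in 0. The regions share mice, and these signs were not tested.

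Other microglial genes rose with the 10. Of 42 further homeostatic genes, 297 of 630 pairs rose and 5 fell, with a median slope of 0.0135. Ctss, a lysosomal protease, and C1qa, a subunit of the complement starter C1q, rose in 14 of 15 regions each, and Ptprc (CD45) and Fcer1g (an Fc receptor subunit) in 13. Of 29 genes of activated microglia in the table, 265 of 415 pairs rose and 1 fell, with a median slope of 0.0277. Cd68 and Ctsz rose in 14 regions, and Gpnmb and Lyz2 in 13, with mean slopes of 0.0477, 0.0285, 0.0841 and 0.0839 per month. Clec7a was not analysed here.

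Among the ligands and partners of the 10 genes, 67 of 258 pairs rose and 23 fell. Tyrobp, the adaptor of several microglial receptors, rose in 13 regions, and the ATP receptors P2rx7 and P2rx4 rose in 10 and 9. Of the ligands of Csf1r, Csf1 rose in 9 regions and fell in 0 (mean slope 0.0202), and Il34 rose in 1 and fell in 4 (mean slope -0.00393). Cx3cl1, which encodes fractalkine, rose in 1 region and fell in 7 (mean slope -0.00846).

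**Figure D5:**
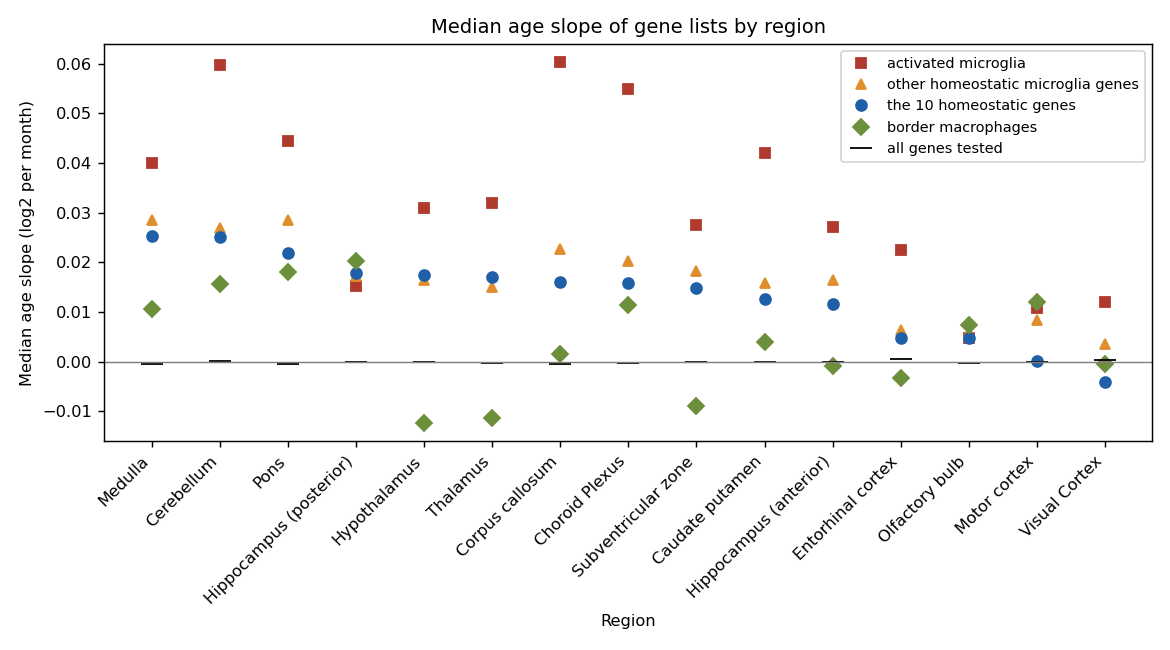
Median age slope in log2 per month in each region of the 10 genes, the other homeostatic genes, the activated microglia genes, the border macrophage genes and all genes tested. In medulla the 10 genes have a median of 0.0254 and all genes -0.00052, and in visual cortex the 10 genes have -0.00417.

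Markers of other cells that could carry some of these transcripts were read beside them. Of the border macrophage genes 14 of 119 pairs rose and 5 fell, and 11 of 12 genes passed the filter on low counts in at least 1 region. In medulla 1 of 10 tested rose, and the summed level of the 12 ran from 6.87 to 26.0 CPM at 3 months and from 11.8 to 21.9 CPM at 28 months. There Siglec1 was at 0 in 27 of 58 libraries, Clec10a in 19 and Folr2 in 14. Ms4a7 rose in 8 of 14 regions (mean slope 0.0522). Monocyte genes rose in 6 of 42 pairs and fell in 0, T cell genes in 2 of 28 and B cell genes in 4 of 15. In medulla the monocyte sum ran from 9.05 to 19.5 CPM at 3 months and from 12.3 to 14.7 at 28 months.

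Granulocyte genes moved in visual and motor cortex, where few of the 10 genes passed. In visual cortex 8 of 9 granulocyte genes rose (median slope 0.197) and 5 of 5 blood genes (median slope 0.141). The granulocyte sum there ran from 0 to 50.5 CPM at 3 months and from 10.2 to 495.8 CPM at 28 months. In motor cortex 6 of 7 granulocyte genes rose and 0 of 5 blood genes, and in hypothalamus, where 9 of the 10 genes rose, 6 of 7 and 4 of 5. In medulla 0 of 10 granulocyte genes and 0 of 5 blood genes rose. The part of these cells in the results was not tested. Genes of the choroid plexus rose in 10 of 116 pairs and fell in 3, 7 of the rises in anterior hippocampus. In caudate putamen the summed level of that list had a median of 255.3 CPM at 3 months (156.2 to 5421) and was 482.1, 2513 and 5295 CPM at 28 months. Enpp2 alone had a median of 235.4 CPM there at 3 months and 1220 at 28 months. With the mean level of the list as a covariate, 83 pairs outside choroid plexus rose and 2 fell, against 85 and 2 without it.

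The remaining lists, for other cells of the brain, were counted in the same way. Oligodendrocyte precursor genes fell in 28 of 120 pairs and rose in 1, and Gpr17 fell in 15 of 15 regions (mean slope -0.0415). Neuroblast genes fell in 34 of 110 pairs and rose in 2, with Sox11 falling in 12 regions and Sox4 in 9. Astrocyte genes rose in 29 of 120 pairs and fell in 8, and Gfap rose in 12 regions (mean slope 0.0587). Oligodendrocyte genes rose in 15 of 150 pairs and fell in 9, neuronal genes in 5 and 18 of 150, endothelial genes in 11 and 2 of 120, pericyte and fibroblast genes in 6 and 14 of 135, ependymal genes in 6 and 0 of 72, and blood genes over all regions in 16 and 0 of 75.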

How the data were processed

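The table holds whole-number read counts per gene symbol, unnormalized, as the authors deposited them, for 847 libraries of 59 mice. Per the labels' protocols, column-purified RNA was turned into Smart-Seq2 cDNA and Nextera XT libraries. Per the submitters' processing notes, Trim Galore 0.3.7, STAR 2.5.3a, DESeq2 and GRCm38 were used, with no role given. The counting program and annotation are not given in the sources used here, so how reads of overlapping genes were assigned is unknown. Libraries held 481444 to 26756735 reads, and no 2 held identical values.

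Regions were fitted alone in edgeR 4.0.16 (R 4.3.3): TMM factors, filterByExpr on sex and age groups, a quasi-likelihood test of age in months with sex, of each age against 3 months, of sex and of age by sex (3 to 21 months), Benjamini-Hochberg adjustment over all genes of the region and a threshold of 0.05. A joint fit of 15 regions tested age by region terms and neighbouring regions. The ratio to Csf1r was the age slope of a difference of log2 CPM (prior count 2) with 100000 permutations of ages among mice within sex. Its adjustment, planned over the 9 genes and 15 regions, was made over all genes of a region with a mean of at least 1 CPM instead. Fits were tested on simulated data.

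Libraries of 1 mouse number come from 1 animal, so the numbers pair the regions. Over 105 pairs of regions, deviations from the group means of libraries of the same mouse had a median r of 0.065 (-0.359 to 0.47), above 0.1 in 46. Alternatives were RLE factors, no filter, DESeq2 1.42.0, depth covariates, subsets of mice and libraries left out. The libraries that stand apart in the 10 genes were chosen after seeing the data. Named genes were the 10 members, up to 4 genes per other list that passed in the same direction in at least 8 regions, and the 10 genes with the highest mean r with the members. One gene, and the ratio to a reference that includes it, are not reported here. Cx3cl1 and Il34 were named after their values were seen, as ligands of members. The members, lists and tests were chosen with earlier results of these data known. Gene positions are from GENCODE M21, promoters from RefSeq.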

Additional observations from a re-analysis of the deposited data

Results flagged for a closer look

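In groups of 4 to 10 libraries of 1 region and age, the mean of log2(CPM + 0.5) over the 10 genes was checked for a library far from the others. Of 77 groups 9 had one, where chance alone gives about 1 in 20, or 3.9. In caudate putamen at 3 months mouse 29 was lowest at 5.08 (the others 5.23 to 5.30). In thalamus at 3 months mouse 17 was lowest at 3.83 (the others 4.29 to 4.55). Mouse 8 was the lowest of 5 libraries at 26 months in 3 regions: medulla at 4.65 (the others 4.88 to 4.96), motor cortex at 4.45 (4.62 to 4.67) and thalamus at 4.43 (4.69 to 4.80).

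The libraries that stood high were mouse 23 in cerebellum at 18 months at 4.51 (the others 3.83 to 4.10), mouse 37 in choroid plexus at 3 months at 5.02 (4.60 to 4.81), mouse 50 in pons at 15 months at 5.66 (4.97 to 5.22) and mouse 21 in visual cortex at 3 months at 5.12 (4.53 to 4.83). Without these 9 libraries 94 pairs still rose with age and 2 fell.

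The age slope differed between regions for 9 genes in the joint edgeR fit. The adjusted p was 2.21e-26 for Cx3cr1, 1.35e-18 for Csf1r, 5.24e-15 for Gpr34, 5.04e-10 for Olfml3, 7.8e-07 for Selplg, 9.84e-07 for P2ry13, 2.61e-06 for Tmem119, 6.78e-05 for Siglech and 0.0373 for P2ry12.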

How the results depend on the processing

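Of 96 called age slopes, 83 were called in every setting on all ages and both sexes and without each of 14 mice. Among the calls not kept throughout were the P2ry12 rise in subventricular zone and the Sall1 rise in visual cortex. Csf1r in anterior hippocampus and Gpr34 in posterior hippocampus and olfactory bulb were not kept throughout either. The settings on all ages and both sexes, with no mouse left out, gave 91 to 95 rising of 150 pairs, mice 16 to 56 gave 83 and 3 to 21 months 88. Males alone gave 55 rising. The males of mice 1 to 15 gave 4 rising and 0 falling, and there 13 called slopes were negative with no call: Cx3cr1 -0.00055 and Gpr34 -0.00429 in posterior hippocampus, Gpr34 -0.00311, P2ry13 -0.00703 and Siglech -0.00476 in olfactory bulb, Gpr34 -0.00353, P2ry12 -0.00187 and P2ry13 -0.0031 in subventricular zone, Olfml3 -0.0085 in hypothalamus, Sall1 -0.01359 in visual cortex, Siglech -0.00051 and Tmem119 -0.00182 in choroid plexus, and Tmem119 -0.00194 in caudate putamen. That subset holds fewer mice and 2 ages.

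Higher pairs against 3 months were 6 at 12 months and 12 at 15 months with depth covariates. Males alone gave 1, 2, 12, 36 and 34 higher at 12, 15, 18, 21 and 28 months, and 1 lower at 26 months, with no shares of all genes given for males here. The 2 lower pairs at 18 months became 1 with RLE factors, with no filter, with depth covariates, in males alone and without the libraries apart in the 10 genes. Leaving out 1 of 14 mice at a time gave 85 to 94 rising and 2 to 2 falling slopes. It gave 11 to 16 higher and 0 to 1 lower pairs at 12 months, 10 to 21 higher at 15 (10 without mouse 38), 29 to 41 and 1 to 2 at 18, 71 to 80 and 1 to 2 at 21, 36 to 44 higher at 26, and 21 to 54 and 0 to 2 at 28 months (21 without mouse 58). By sex it gave 14 to 16 lower and 0 to 1 higher pairs in males.

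Relative to Csf1r, pairs rising and falling were 19 and 3 in males alone, and 43 and 3 in mice 16 to 56. Leaving out each mouse gave 33 to 42 rising and 5 to 7 falling. With the mouse as a replicate block 9 genes differed between regions in slope, and 105 of 140 neighbouring comparisons passed against 104. The block changed calls only for Selplg in 2 regions among slopes against the other regions, and among neighbours for Csf1r in 2 steps and Olfml3 in 1. The cause of these changes was not tested.

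Counting error weighs more on Sall1 and P2ry13, with medians of 79 and 99 reads per library, than on Csf1r with 574.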
